A study of Pavo cristatus and Gallus gallus and Meleagris gallopavo with 54 samples.

Results

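The mitochondrial ribosomal protein genes were followed in embryonic fibroblasts of chicken, quail, duck and zebra finch by cap analysis of gene expression (CAGE), which sequences the capped 5′ ends of transcripts and so counts the use of each transcription start site. A gene was a member when its symbol began with MRPL or MRPS followed by a number, and it was read at its start site peak of highest mean level. This rule found 66 members among 8168 genes in chicken, 65 among 8331 in quail, 57 among 7706 in duck and 65 among 8345 in zebra finch, and 73 different symbols in the 4 species together. Of these symbols, 48 were listed in all 4 species, 15 in 3, 6 in 2 and 4 in 1. Every peak of a member lay in a promoter region. Levels are TPM, the tags of a peak scaled to the tag total of its library. Only peaks that reached 10 TPM in a library had been kept by the authors. A member without a peak may thus be expressed below that level, and its start site is not analysed here. Several such members were nevertheless well read by RNA sequencing, with values under the other observations. Why these lack a peak was not tested. In duck MRPL42, and in quail MRPL38, MRPL55 and MRPS2, reached 10 TPM in female libraries only, so they entered the table through the females. No member of chicken or zebra finch was listed through 1 sex alone, and no member through males alone.

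The cells were untransformed trunk fibroblasts, each culture from a single embryo at about Hamburger-Hamilton stage 36, taken at passage 5 after growth in medium with 10% fetal bovine serum. Chicken, quail and duck each gave 6 CAGE libraries from 3 embryos, each embryo being grown in DMEM/F12 (called F12) and in DMEM (called high glucose). Chicken and quail had 2 female embryos and 1 male embryo, and duck had 1 female and 2 male embryos. Zebra finch gave 3 female libraries and 1 male library, all in high glucose medium. In each species, 1 of the sexes therefore rests on a single embryo or library, so that sex and the individual embryo cannot be told apart. RNA sequencing (RNA-seq) of 1 library per labelled sex and species gave FPKM, fragment counts scaled to gene length and library total. The RNA-seq cultures of quail were grown in F12, and those of chicken, duck and zebra finch in high glucose.

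Mitochondria have their own ribosome, which translates the few proteins of the respiratory chain that the mitochondrial genome encodes. All its proteins are products of nuclear genes and are imported. Some descend from bacterial ribosomal proteins, and others were added during the evolution of mitochondria. The symbols do not always follow the structure: in mammals, the products of MRPS30 and MRPS18A sit in the large subunit, and MRPS36 encodes a small subunit of the alpha-ketoglutarate dehydrogenase complex and no ribosomal protein. Male birds carry a pair of Z chromosomes and females a Z and a W, and birds are known to balance Z expression between the sexes gene by gene and only in part.

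The CAGE libraries held 7006061 to 12055369 tags each, the shallowest being duck female library 2. Fibroblast markers such as collagens were abundant, with 13 to 16 of 18 listed per species and a summed level of 14917 to 94110 TPM. None of the endothelial, glial or neural crest markers was listed. Epithelial markers summed to at most 37.8 TPM, skeletal muscle markers to 85.2 TPM, blood and macrophage markers to 367 TPM and cartilage markers to 530 TPM in any library. Smooth muscle and myofibroblast markers, 3 of 4 listed, summed to 778 TPM in the male zebra finch library and to 2410 to 2699 TPM in the females of that species. The fibroblast markers of duck summed to 84832 to 94110 TPM in females and 72779 to 82122 TPM in males. Libraries of 1 sex differed as well: smooth muscle markers summed to 3471 to 7842 TPM in chicken females and 2883 to 7325 TPM in quail females. In quail females fibroblast markers summed to 34002 to 65054 TPM, cartilage markers to 7.80 to 530 TPM and blood and macrophage markers to 0.181 to 367 TPM. The part of these marker differences in the sex and embryo differences below was not tested.

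Members were expressed above most genes in each of the 4 species. The median member stood at 71.5 TPM in chicken, 73.3 TPM in quail, 67.7 TPM in duck and 74.1 TPM in zebra finch, against medians over all genes of 33.3, 32.3, 31.7 and 31.3 TPM. Between 80.3% of members, in chicken, and 90.8%, in zebra finch, lay above the median of all genes. Genes of the cytosolic ribosome were read far more often, with medians 15.2 to 17.1 times that of the members. The summed start site activity of the members took 0.514% to 0.589% of the tags of a chicken library, 0.526% to 0.671% in quail, 0.450% to 0.582% in duck and 0.613% to 0.746% in zebra finch. Because the table of each species was made on its own assembly and annotation, levels were compared between species only as a description.

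**Figure D1:**
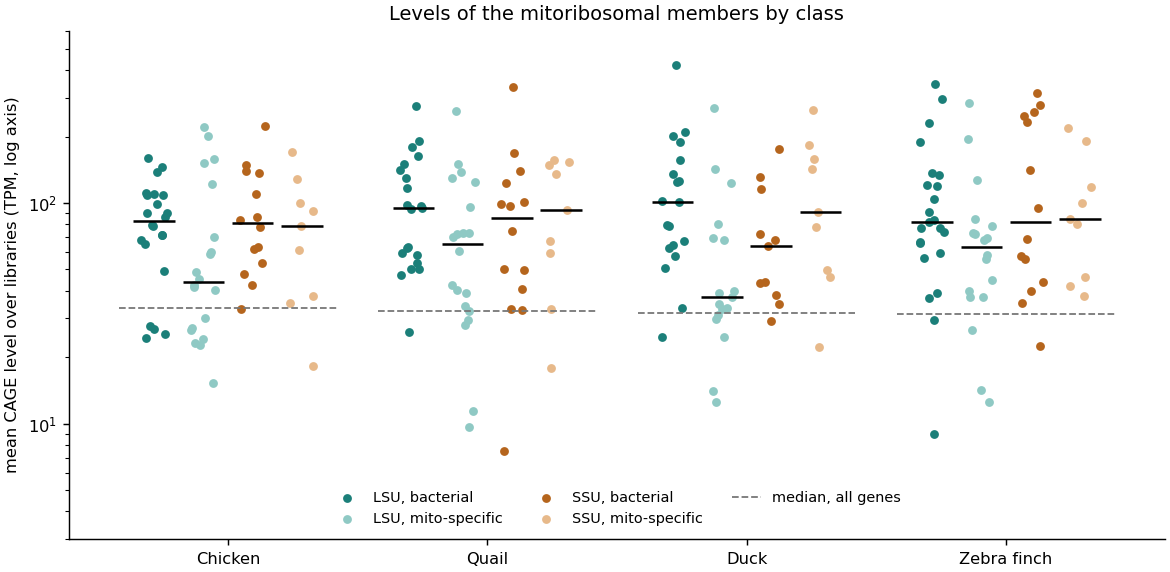
Mean CAGE level over the libraries of a species (TPM, log axis) of each ribosomal member, by class: large subunit (LSU) or small subunit (SSU), with a bacterial homologue or specific to mitochondria. Black bars are class medians and dashed lines medians over all genes. The mitochondria-specific proteins of the large subunit have the lowest class median in each species, from 37.4 TPM in duck to 65.3 TPM in quail.

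The classes of the ribosome did not stand at one level. Proteins of the large subunit with bacterial homologues had medians of 82.6 TPM in chicken, 95.1 TPM in quail, 101 TPM in duck and 82.2 TPM in zebra finch. The mitochondria-specific proteins of the large subunit had medians of 43.8, 65.3, 37.4 and 62.9 TPM in the same order. The small subunit lay between 63.9 and 85.5 TPM for bacterial homologues and between 78.7 and 92.8 TPM for mitochondria-specific proteins. These medians describe 9 to 23 genes each and were not tested.

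At the top of the range stood proteins of both subunits. In chicken these were MRPS21, a small-subunit protein with a bacterial homologue, at 224 ± 35.4 TPM (SD, n = 6), MRPL54 at 222 ± 18.1 TPM and MRPL43 at 200 ± 10.5 TPM, both specific to mitochondria and of the large subunit. MRPS21 at 335 ± 85.3 TPM, MRPL20 at 274 ± 42.8 TPM and MRPL43 at 261 ± 31.3 TPM led in quail, in n = 6 libraries. The highest in duck (n = 6) were MRPL33 at 420 ± 58.8 TPM, MRPL43 at 269 ± 36.6 TPM and MRPS23 at 265 ± 48.8 TPM. Zebra finch (n = 4) had MRPL33 at 348 ± 39 TPM, MRPS21 at 316 ± 45.3 TPM and MRPL17 at 296 ± 122 TPM. MRPL20 and MRPL33 are large-subunit proteins with bacterial homologues, and MRPS23 is a mitochondria-specific protein of the small subunit. MRPL43 was among the leaders in the first 3 species, and its percentile among all genes of its table moved by only 2.60 points over the 4 species.

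The lowest members were mostly other genes in each species. MRPS30 at 15.2 ± 6.73 TPM, MRPS27 at 18.2 ± 4.27 TPM and MRPL53 at 22.7 ± 3.70 TPM were lowest in chicken. In quail MRPS2, a small-subunit protein with a bacterial homologue, stood at 7.48 ± 8.52 TPM, MRPL55 at 9.69 ± 1.70 TPM and MRPL38 at 11.4 ± 6.62 TPM. MRPL37 at 12.6 ± 2.71 TPM, MRPL42 at 14.1 ± 14.7 TPM and MRPS22 at 22.3 ± 4.23 TPM were lowest in duck. MRPL3, a large-subunit protein with a bacterial homologue, stood at 8.95 ± 3.59 TPM in zebra finch, below MRPL37 at 12.6 ± 1.74 TPM and MRPL40 at 14.2 ± 3.24 TPM. MRPL3 was at 109 TPM in chicken, a change of 76.0 percentile points, and MRPL55 was at 121 TPM in chicken against the 9.69 TPM of quail, a change of 74.9 points. MRPL40 fell in rank by 67.0 points from 159 TPM in chicken to zebra finch. RNA-seq values of these genes are given as a description. Their ranks are not given, and FPKM also depends on the gene length in each annotation, so the size of the drops cannot be compared. MRPL3 had 51.1 and 53.4 FPKM in chicken and 34.9 and 37.8 FPKM in zebra finch, in the libraries labelled female and male. MRPL55 had 66.6 and 54.1 FPKM in chicken, grown in high glucose, and 60.4 and 25.7 FPKM in quail, grown in F12. MRPL40 had 68.5 and 62.6 FPKM in chicken and 43.5 and 34.1 FPKM in zebra finch. Over the 53 to 61 members shared by a pair of species, Spearman's rho of the levels was 0.47 to 0.61, against 0.64 to 0.77 over all genes shared by the pair; these values are across genes, which share annotation and library.

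Most members had a single start site region. In chicken 65 of 66 members had 1 promoter peak, in quail 63 of 65, in duck 56 of 57 and in zebra finch 55 of 65, or 84.6% in the last against 88.2% of all genes there. The median peak was 138 to 173 bp wide, against 151 to 173 bp over all genes. Some members start next to another gene that is read in the opposite direction. Counting peaks of another gene on the other strand at most 500 bp upstream, 12 members had such a neighbour in chicken (18.2%, against 11.4% of all genes), 10 in quail (15.4% against 9.35%), 10 in duck (17.5% against 8.07%) and 11 in zebra finch (16.9% against 9.30%). MRPL32 lay beside PSMA2, a proteasome subunit gene, MRPL41 beside PNPLA7, and MRPL51 beside NCAPD2, a condensin gene, in each of the 4 species. MRPL47 lay 104 bp from NDUFB5, a gene of respiratory complex I, in chicken and 240 bp from it in zebra finch.

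Sex differences were read for each species as male minus female log2(TPM + 1), with limma over all promoter peaks and Benjamini-Hochberg adjustment over all of them, a gene being called at an adjusted p below 0.05. In chicken, quail and duck this fit treated the cultures of an embryo as separate samples. Its SE and p there mix the spread between cultures of an embryo with that between embryos of the same sex. The sex with a single embryo adds no spread between birds, so SE and p do not measure that spread. With 1 value per embryo, 0 members were called in each of these species. That fit rests on 3 values per species and could call little. Its share of all genes called is not given, so the count is no result about the members. MRPL17, MRPL50, MRPS27, MRPS30 and MRPS36 lie on Z in every species where they were listed, which left out MRPL50 in zebra finch and MRPS30 in duck. Each of these 18 gene and species pairs had a higher male mean. In 17 of the 18 pairs the lowest male library was above the highest female library, MRPS36 in quail being the exception. The same held for 60.2% of all Z genes in quail to 77.3% in zebra finch, where there is a single male library. On the log2 scale the difference ran from 0.40 for MRPS36 in duck to 1.36 for MRPL17 in chicken, and none of the alternatives tried turned a sign.

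**Figure D2:**
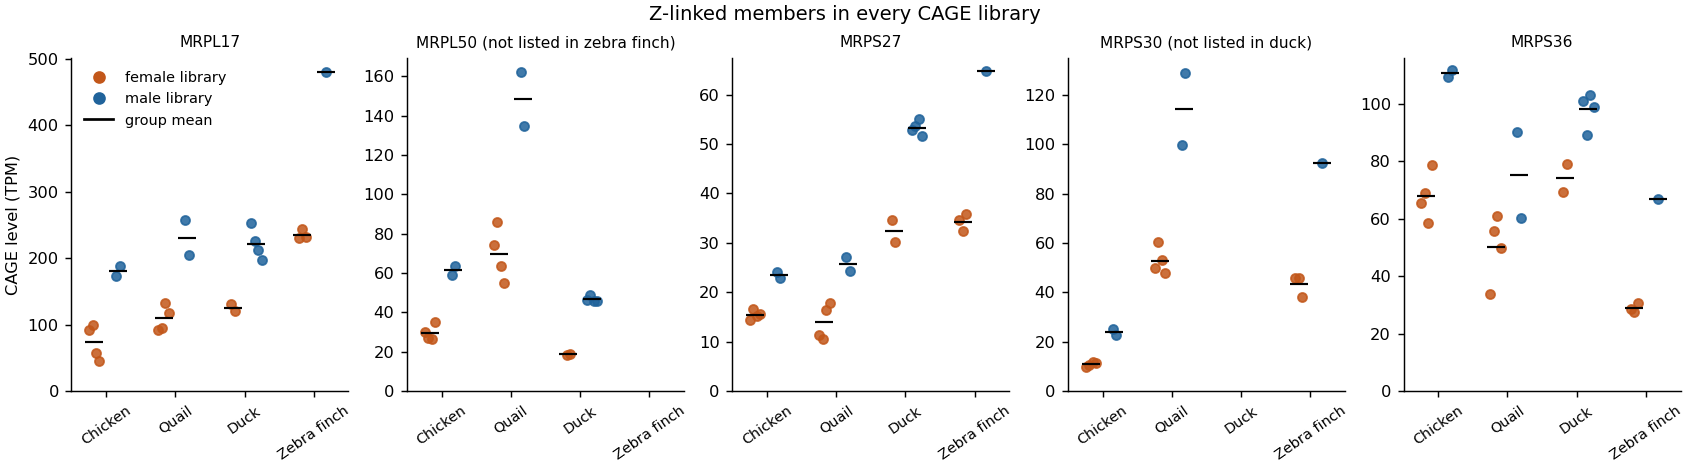
CAGE level (TPM) of the 5 members on Z in every library, by species and sex, with group means as black bars. Male libraries lie above all female libraries of their species for each gene except MRPS36 in quail, where the male libraries at 90.2 and 60.3 TPM overlap female ones of up to 61.0 TPM. Of all Z genes, 60.2% in quail to 77.3% in zebra finch had no overlap with males higher.

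MRPL50, a mitochondria-specific protein of the large subunit, was called higher in males of chicken and duck. Its chicken peak (galGal6, chromosome Z, 65339738 to 65339791) had 29.8, 27.1, 26.7 and 35.3 TPM in female libraries 1 to 4 and 59.1 and 63.6 TPM in the male libraries. Its duck peak (ZJU1.0, chromosome Z, 75283836 to 75284015) had 18.3 and 19 TPM in the females and 46.5, 48.8, 45.7 and 45.8 TPM in the males. No male library came near a female one in either species. The log2 difference was 1.03 ± 0.14 (SE) in chicken and 1.28 ± 0.12 in duck, both called, with limma adjusted p of 0.0124 and 0.00130. In quail (Coturnix_japonica_2.1, chromosome Z, 57910626 to 57910765) the females had 74.0, 85.9, 63.5 and 54.7 TPM and the males 162 and 135 TPM. That difference of 1.10 ± 0.22 had a limma adjusted p of 0.120 and was not called.

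MRPL17, a large-subunit protein with a bacterial homologue, was the most active of the Z members, and its level differed between the female embryos in chicken. Its chicken peak (chromosome Z, 9298506 to 9298765) had 91.5 and 98.8 TPM in the libraries of one female embryo, 57.4 and 45.7 TPM in those of the other, and 173 and 188 TPM in the male embryo. The log2 difference of 1.36 ± 0.30 had a limma adjusted p of 0.0609. Duck females had 131 and 121 TPM against 252, 225, 212 and 197 TPM in males, a difference of 0.81 ± 0.13 with a limma adjusted p of 0.0163. Zebra finch females had 230, 244 and 232 TPM and the male library 479 TPM. Quail females had 91.1, 95.3, 132 and 118 TPM against 257 and 205 TPM in males. The differences of 1.02 ± 0.23 in zebra finch and 1.08 ± 0.22 in quail were not called, with limma adjusted p of 0.421 and 0.119.

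MRPS30, whose product belongs to the large subunit in mammals, had means of 15.2 TPM in chicken, 73.3 TPM in quail and 55.5 TPM in zebra finch. Chicken females had 9.87, 10.6, 11.9 and 11.3 TPM and males 25 and 22.6 TPM at chromosome Z, 14183636 to 14183778. The log2 difference of 1.06 ± 0.15 was called, with a limma adjusted p of 0.0132. Quail females had 49.8, 60.4, 53.2 and 47.8 TPM against 99.6 and 129 TPM in males, a difference of 1.09 ± 0.19 with a limma adjusted p of 0.0892. Zebra finch females had 45.8, 45.7 and 38.1 TPM and the male library 92.6 TPM, a difference of 1.09 ± 0.27 with a limma adjusted p of 0.476. The difference was thus near 1 on the log2 scale in all 3 species, whereas the call depended on the species.

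MRPS27, a small-subunit protein specific to mitochondria that in human belongs to the pentatricopeptide repeat family, was called in duck. Its libraries ran from 30.1 to 34.6 TPM in duck females and from 51.6 to 55.1 TPM in males, a log2 difference of 0.70 ± 0.12 with a limma adjusted p of 0.0216. Chicken females had 14.4 to 16.6 TPM and males 22.9 and 24.2 TPM, which gave 0.58 ± 0.13 and a limma adjusted p of 0.0668. Quail and zebra finch gave 0.86 ± 0.27 and 0.90 ± 0.25 without a call.

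MRPS36, the Z member that is no ribosomal protein in mammals, showed the least even difference. It was called in chicken, where females had 65.3, 69.0, 58.4 and 78.7 TPM and males 109 and 112 TPM, a log2 difference of 0.70 ± 0.14 with a limma adjusted p of 0.0406. The difference was 0.40 ± 0.12 in duck and 0.58 ± 0.29 in quail, where the sexes overlapped, and neither was called. Zebra finch gave 1.18 ± 0.25, from 28.4, 27.6 and 30.6 TPM in females and 66.6 TPM in the male library, again without a call.

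Set beside the rest, the Z members had a median log2 difference of 1.03 in chicken, 1.08 in quail, 0.76 in duck and 1.06 in zebra finch. The other members had medians of -0.09, 0.10, 0.16 and 0.16, and all genes of 0.00, 0.11, 0.13 and 0.03. The medians of Z members thus lay 1.12, 0.98, 0.60 and 0.89 above those of the other members. All 380 to 409 Z genes per species had medians of 0.53 in chicken, 0.65 in quail, 0.65 in duck and 0.74 in zebra finch. Each was lower than the median of the 4 or 5 Z members. MRPS36 lay below the median of all Z genes in quail, at 0.58, and in duck, at 0.40. A higher level in every male library than in any female one was found for 68.7% of all Z genes in chicken, 60.2% in quail, 70.3% in duck and 77.3% in zebra finch. With 5 or fewer Z members per species, this difference between Z members and other Z genes was not tested.

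**Figure D3:**
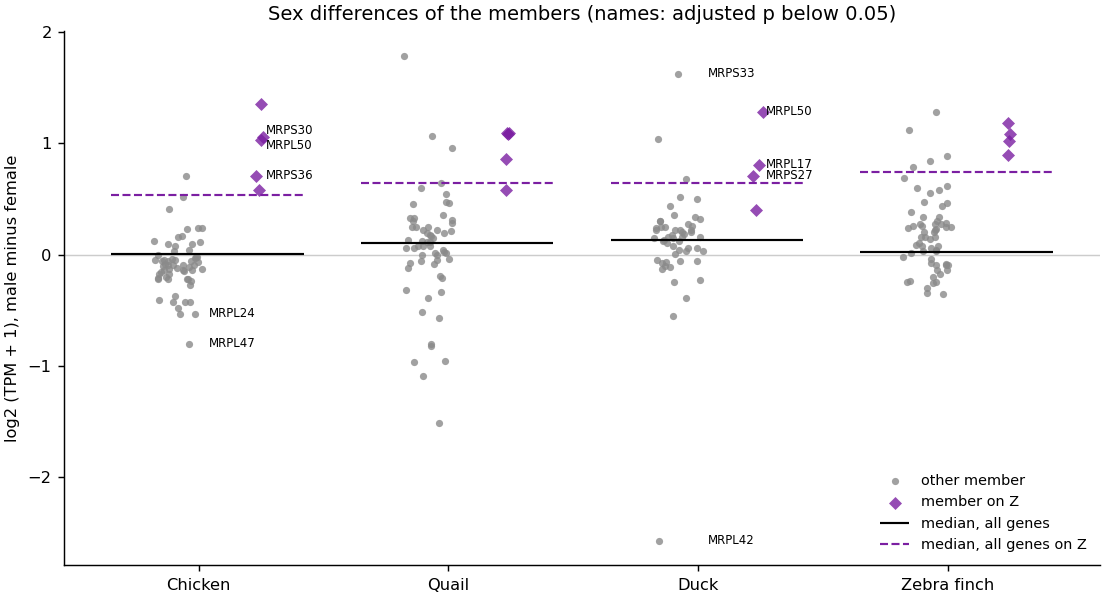
Male minus female difference on the log2(TPM + 1) scale of each member in the 4 species, members on Z as diamonds and others as circles, with the medians over all genes and over all Z genes. Named members passed an adjusted p of 0.05; the 18 Z values lie between 0.40 and 1.36, and MRPL42 in duck, listed through its female libraries only, stands lowest at -2.57.

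In chicken, 3 members were called higher in males, MRPL50, MRPS30 and MRPS36, beside 1.47% of all genes in that direction, and 2 were called lower in males, MRPL24 and MRPL47, beside 1.22% of all genes. The 3 higher in males lie on Z, where 21.4% of all genes were called higher in males. MRPL47, a large-subunit protein with a bacterial homologue on chromosome 9 (17588471 to 17588616), had 28.9, 31.1, 32 and 34 TPM in females and 18.8 and 16.5 TPM in males. It fell by 0.80 ± 0.13 on the log2 scale, with a limma adjusted p of 0.0212. NDUFB5, which starts 104 bp away on the other strand, had 484 to 562 TPM in females and 389 and 430 TPM in males, a difference of -0.35 with a limma adjusted p of 0.180. MRPL24, also with a bacterial homologue, had 118, 121, 124 and 129 TPM in females and 82.0 and 87.6 TPM in males on chromosome 25, a difference of -0.53 ± 0.10 with a limma adjusted p of 0.0419. Neither gene's male libraries overlapped the female ones. MRPS14, a small-subunit protein with a bacterial homologue, differed by -0.54 ± 0.16 and was not called, with a limma adjusted p of 0.158. For the other fits named next, the share of all genes called is not given. The 5 calls of chicken became 3 with the embryo as a random block, which left MRPL47, MRPL50 and MRPS30. They became 0 with 1 value per embryo, 0 without female library 2 or without either male library, and 3 without female library 3, namely MRPL3, MRPL50 and MRPS30.

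In duck, 4 members were called higher in males, MRPL17, MRPL50, MRPS27 and MRPS33, beside 3.11% of all genes in that direction, and 1 was called lower, MRPL42, beside 1.27% of all genes. Of all Z genes of duck 29.5% were called higher in males. MRPL42 (ZJU1.0, chromosome 1, 47496929 to 47497162), a mitochondria-specific protein of the large subunit, had 35.8 and 29.8 TPM in the female embryo and 4.86, 4.72, 5.13 and 4.01 TPM in the male embryos. This was 5.95-fold more in the female on the scale of the fit, a log2 difference of -2.57 ± 0.18. Because only the female libraries brought this peak past the 10 TPM minimum, it had to be higher there to be listed, and its call is no test of the sexes. In the other species the same gene had differences of 0.24 in chicken, -0.32 in quail and 0.25 in zebra finch. UBE2N, the nearest other gene with a peak at 9843 bp, had 261 to 338 TPM in all 6 duck libraries. MRPS33 (chromosome 1, 60198889 to 60199059), a mitochondria-specific protein of the small subunit, had 36.8 and 35.4 TPM in the female embryo, 162 and 147 TPM in one male embryo and 81.6 and 84.4 TPM in the other. Its difference was 1.62 ± 0.30, with a limma adjusted p of 0.0278. The male embryos lay apart from each other as well as from the female. For the other fits named next, the share of all genes called is not given. The 5 calls of duck became 0 with 1 value per embryo, 2 without the shallow female library 2, which left MRPL42 and MRPL50, and 3 without male library 1, 2 or 3.

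**Figure D4:**
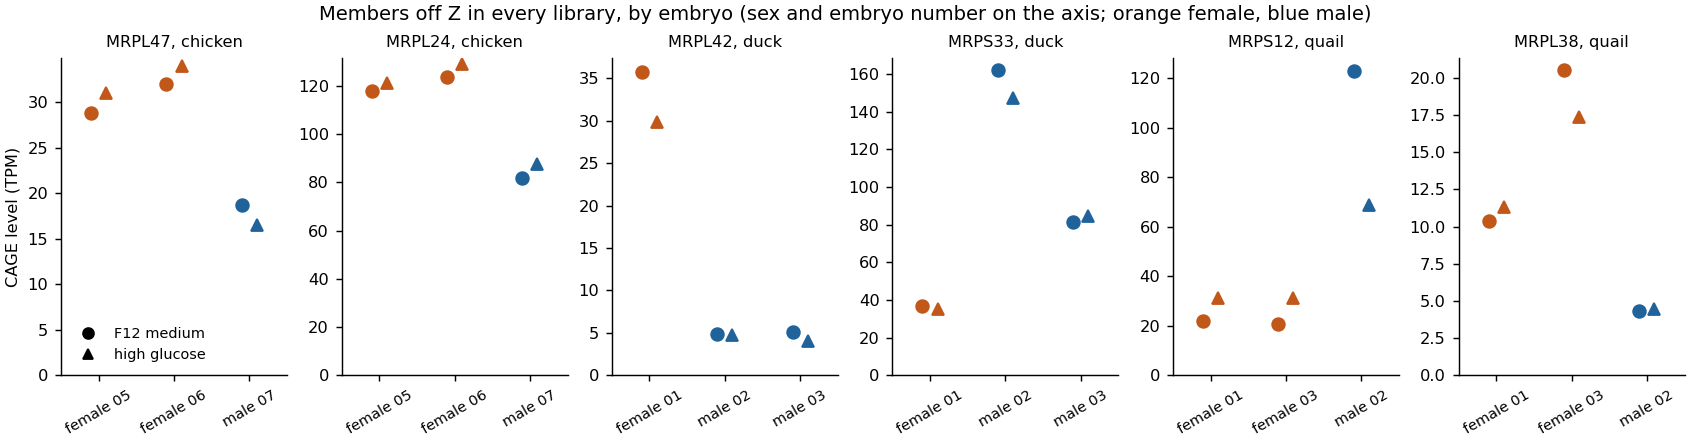
CAGE level (TPM) of 6 members off Z in each library, by embryo, with circles for F12 and triangles for high glucose medium. The pair of libraries of an embryo lie close together in most panels, as for MRPL42 in duck with 35.8 and 29.8 TPM in the female embryo and 4.01 to 5.13 TPM in the males; MRPS12 in the male quail embryo, at 123 and 68.7 TPM, does not.

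No member was called in quail, beside 0.0120% of all genes called higher in males and 0.132% called lower. In zebra finch 0 members were called as well, beside 0% of all genes called higher in males and 0.288% lower. At an unadjusted limma p below 0.05 there were 14 members in quail, 9 of them higher in males, and 6 in zebra finch, all higher in the male. Over all genes 11.7% in quail and 8.30% in zebra finch passed that limit, 7.80% and 3.99% being higher in males. With edgeR's quasi-likelihood test on tags, 0 members were called in either species and 14 in quail and 6 in zebra finch had an unadjusted p below 0.05, beside 10.7% and 8.08% of all genes. With the embryo as a random block, MRPS12 and MRPS30 were called in quail, and with 1 value per embryo 0 members were. For these fits the share of all genes called is not given, so the counts describe the members alone. MRPS12, the homologue of a bacterial protein of the decoding centre, had the largest difference in quail. It had 22.1, 31.3, 20.6 and 31.3 TPM in females and 123 and 68.7 TPM in the male embryo. The difference was 1.79 ± 0.30 with a limma adjusted p of 0.0790. PAK4, which starts 236 bp away on the other strand, had a difference of -0.12 with a limma adjusted p of 0.871. MRPL38, a mitochondria-specific large-subunit protein, had 10.4, 11.3, 20.5 and 17.4 TPM in quail females and 4.30 and 4.42 TPM in the males, a difference of -1.52 ± 0.34. MRPS2 followed at -1.09. Both are in the table through their female libraries only, so these differences are given as a description. MRPL27 stood at -0.97 and was not called.

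The remaining members at the ends of the range passed no test. The largest of zebra finch was MRPL57, a mitochondria-specific large-subunit protein, with 26.5, 32.9 and 22.7 TPM in females and 67.3 TPM in the male library, a difference of 1.28 ± 0.31 at a limma adjusted p of 0.474. It was followed by MRPS36 on Z and by MRPS24 at 1.12 ± 0.30. At the other end of zebra finch were MRPS10 at -0.35, MRPL55 at -0.34 and MRPL27 at -0.30. Duck ended with MRPL13 at 1.04 ± 0.44 above and MRPL16 at -0.55 ± 0.17 and MRPL44 at -0.39 ± 0.15 below. MRPL13 rests on 22.7 TPM in the shallow female library, the other female library having 82.9 TPM and the males 82.2 to 108 TPM.

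Counting members whose male and female libraries did not overlap gave 10 of 66 higher in males and 15 lower in chicken, beside 12.8% and 12.2% of all genes. It gave 19 of 65 and 7 in quail, beside 16.5% and 7.00%, and 16 of 57 and 4 in duck, beside 22.9% and 7.32%. In zebra finch, with its single male library, it gave 28 of 65 and 7, beside 28.8% and 26%. Among those lower in males are MRPL38 in quail and MRPL42 in duck. Both were listed through their female libraries only, so they had to be higher there. The members off Z did not share one direction across species. A lower male level was found for 46 of 61 in chicken, 21 of 60 in quail, 13 of 53 in duck and 18 of 61 in zebra finch. These counts hold MRPL42 of duck and MRPL38, MRPL55 and MRPS2 of quail, which were listed in the same way. Among all genes off Z the share lower in males was 51.3%, 39.4%, 32.7% and 49.3% in the same order. Of the 45 members off Z listed in all 4 species, MRPL3, MRPL45, MRPL53 and MRPS34 had a higher male level in each, which is 4 genes beside 11.9% of all other genes off Z. MRPL43, MRPL51 and MRPL55 had a lower male level in each, 3 genes beside 3.04%. The quail peak of MRPL55 was listed through its female libraries only. The 3 Z members listed in all 4 species were higher in males in each, as were 72.4% of the 192 Z genes.

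Some members differed between embryos of one sex. The mean log2 levels of the pair of same-sex embryos differed by at least 2-fold for 1 of 66 members in chicken (2.68% of all genes), for 3 of 65 in quail (7.97%) and for 1 of 57 in duck (3.80%). MRPS2 in quail had 13.5 and 22.3 TPM in the libraries of one female embryo and 2.15 and 1.95 TPM in those of the other. Only the libraries of the first embryo brought this peak past the 10 TPM minimum. It thus had to be higher there to be listed, and its place among the 3 quail members is no finding about the embryos. MRPL42 in quail had 28.7 and 37.1 TPM in the first of these embryos and 128 and 124 TPM in the second. MRPL40 in quail had 107 and 134 TPM against 51.6 and 51.7 TPM. MRPL35 in chicken had 79.2 and 83.1 TPM against 41.5 and 38.0 TPM in the female embryos, and MRPL27 in duck 38.8 and 38.5 TPM against 17.6 and 19.5 TPM in the male embryos. The libraries of an embryo in both media lay on the same side in each of these 5 cases. The cases were picked by the mean over both libraries, which makes that outcome likely, so it is no separate test.

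The RNA-seq libraries gave a second readout of the same species without a replicate, so no test was made. The paper states that they were made from some of the samples used for CAGE, so they are not an independent set of embryos. All members with a CAGE peak were also present in the RNA-seq tables, with medians of 26 FPKM in chicken, 47.5 FPKM in quail, 31.5 FPKM in duck and 36 FPKM in zebra finch, against 9.02 to 10.5 FPKM over all genes of at least 1 FPKM. The filters are unlike: these members had passed the CAGE minimum of 10 TPM, whereas the genes of at least 1 FPKM need no CAGE peak. The distance between these medians is therefore not that of like sets. Spearman's rho between CAGE and RNA-seq levels was 0.41 to 0.50 across members and 0.68 to 0.75 across all genes. In zebra finch the labels give opposite sexes to the CAGE and RNA-seq libraries of one number, so sexes are named there as each assay's label has them. On the log2(FPKM + 1) scale, every Z member was higher in the library labelled male, with medians of 0.95 in chicken, 0.65 in quail, 0.59 in duck and 0.96 in zebra finch. MRPS36 in duck was all but equal, at 0.009. The share of all Z genes higher in the library labelled male is not given, so this describes the Z members alone. Members off Z had medians of -0.03, -0.25, -0.28 and 0.00, and all genes of 0.00, 0.03, -0.03 and -0.01. In quail 50 of 60 members off Z, and in duck 48 of 53, were lower in the library labelled male, beside 48.5% and 56.0% of all genes off Z. In CAGE, 21 of 60 in quail and 13 of 53 in duck were lower in males, beside 39.4% and 32.7% of all genes off Z. Most members off Z were thus higher in males in CAGE, but so were most genes off Z. The CAGE direction is therefore not particular to the members, and the contrast with RNA-seq was not tested. In RNA-seq 32 of 61 in chicken and 30 of 61 in zebra finch were lower, beside 50.6% and 52.4%.

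Single members were set beside their CAGE values. The RNA-seq values of a species came from 1 medium and 1 library per labelled sex. Its CAGE values in chicken, quail and duck cover both media and all embryos. MRPL50 had 6.36 FPKM in the female and 18 FPKM in the male chicken library, MRPS30 had 11.3 and 27 FPKM, and MRPL17 had 14.8 and 29.5 FPKM. The smallest Z difference was again MRPS36 in duck, with 35.8 and 36 FPKM. Off Z, MRPL47 in chicken had 20.7 FPKM in the female and 14.1 FPKM in the male library, a log2 difference of -0.52 beside -0.80 in CAGE. MRPL42 in duck had 68.6 and 45.0 FPKM, or -0.60 beside -2.57, and MRPS33 in duck had 13 and 14.8 FPKM, or 0.17 beside 1.62. MRPS12 in quail had 98.3 FPKM in the female and 80.5 FPKM in the male library, or -0.29 beside 1.79. For MRPL42, MRPS33 and MRPS12 the RNA-seq difference was thus smaller than that of the start site peak, and for MRPS12 it had the opposite direction. The direction was also opposite for MRPL13 in duck, at -0.46 beside 1.04, and in zebra finch for MRPL57, at -0.31 beside 1.28, and MRPL55, at 0.60 beside -0.34. MRPL24 in chicken had -0.15 beside -0.53, and MRPL50 in quail 0.39 beside 1.10. Of like size in both were MRPL16 in duck, at -0.56 beside -0.55, and MRPS24 in zebra finch, at 1.46 beside 1.12.

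No member passed the threshold between the media. In chicken 0 members were called between high glucose and F12 by limma, beside 0% of all genes in either direction. In quail 0 were called beside 0.0720% of all genes higher and 0.0120% lower in high glucose, and in duck 0 beside 0.0130% in each direction. At an unadjusted limma p below 0.05 there was 1 member in each species, MRPS6 in chicken and quail and MRPL2 in duck, beside 3.66%, 10.7% and 2.26% of all genes. No member was called with the embryo as a fixed block, which called 0 genes in chicken, 31 in quail and 1 in duck. With edgeR's quasi-likelihood test on tags in quail 0 members were called and 2 had an unadjusted p below 0.05, beside 11.1% of all genes. The median log2 difference over members was 0.06 in chicken, -0.04 in quail and -0.12 in duck, against 0.03, 0.05 and -0.06 over all genes. A higher level in high glucose in all 3 embryos was seen for 20 of 66 members in chicken, 5 of 65 in quail and 4 of 57 in duck, beside 22.6%, 24% and 11.8% of all genes. A lower level in all 3 was seen for 3, 11 and 20 members, beside 12%, 14.6% and 21.9%.

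MRPS6, a small-subunit protein with a bacterial homologue, is described here because of its values, which were known when it was chosen. Its chicken peak had 76.6, 139 and 112 TPM in F12 and 154, 240 and 167 TPM in high glucose, each embryo being higher in high glucose. In quail the same pairs were 124 and 207, 93.6 and 132, and 104 and 176 TPM, again higher in each of the 3 embryos. The log2 differences were 0.78 ± 0.25 in chicken and 0.66 ± 0.22 in quail, with limma adjusted p of 1.00 and 0.345, or 0.0922 and 0.142 with the embryo as a block. In human, MRPS6 shares its promoter and first exon with SLC5A3, which encodes a sodium-coupled transporter of myo-inositol that responds to osmotic stress, so a peak at the shared start cannot tell these genes apart, and whether these birds share it was not tested. In duck no peak is named MRPS6, and the peak named SLC5A3, on chromosome 1, had 163, 242 and 170 TPM in F12 and 202, 275 and 258 TPM in high glucose, higher in each of 3 embryos, with a log2 difference of 0.36 ± 0.20 and a limma adjusted p of 1.00. RNA-seq gave the gene named MRPS6 2.88 and 2.72 FPKM in chicken, 20.4 and 13 FPKM in quail and 47.8 and 65.4 FPKM in duck. Its fragment counts were of the same order in chicken and quail. FPKM also depends on the gene length in each annotation, so these values are not compared between species. Whether the annotated gene takes in SLC5A3 in any of them was not tested.

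**Figure D5:**
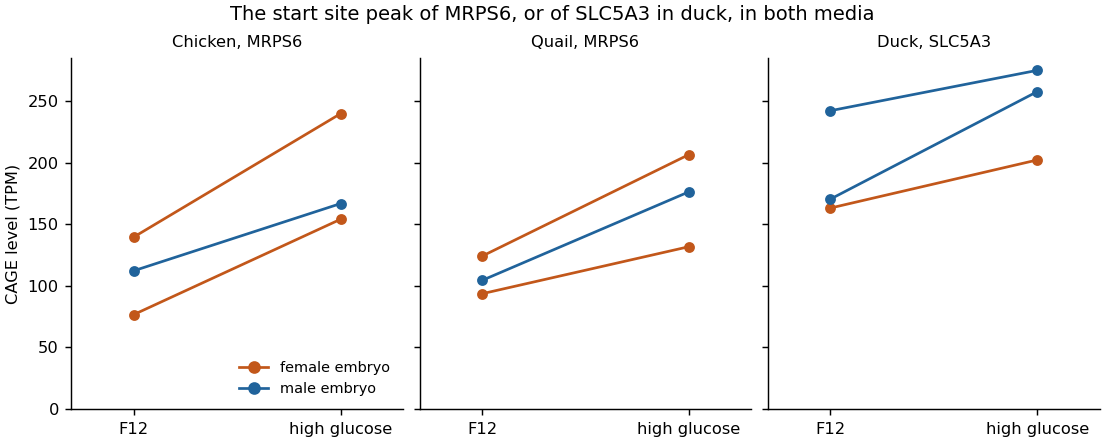
CAGE level (TPM) of the MRPS6 start site peak in chicken and quail, and of the peak named SLC5A3 in duck, in F12 and high glucose medium, with 1 line per embryo. All 9 lines rise, from 76.6 to 242 TPM in F12 to 132 to 275 TPM in high glucose, and none of the 3 differences was called. MRPS6 was chosen for its values and SLC5A3 is another symbol, so the count of rising lines is no test. Of all genes, 22.6% in chicken, 24% in quail and 11.8% in duck were higher in high glucose in all 3 embryos.

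Other genes of mitochondrial translation had lower median levels than the members. Of 25 genes of mitoribosome assembly, 11 to 18 were listed per species, with medians of 15.5 to 28 TPM and 0 called between the sexes. C1QBP and MALSU1 were the highest of them in chicken, at 343 and 57.3 TPM, and in quail, at 164 and 69.0 TPM, while YBEY led in duck at 130 TPM and in zebra finch at 72.3 TPM. Of 14 translation factors, 7 to 9 were listed, with medians of 16.4 to 26.6 TPM. The only call was GFM2, a ribosome recycling factor on Z, higher in chicken males by 0.83 ± 0.16 with a limma adjusted p of 0.0399. Of all Z genes of chicken, 21.4% were called higher in males. GFM2 was also the highest of its list in zebra finch, at 153 TPM. MTIF2 led in chicken at 44.9 TPM, and GFM1, an elongation factor, led in quail at 87.5 TPM and in duck at 63.7 TPM.

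The proteins of the mitoribosome with other symbols, 3 to 5 of 5 listed, had medians of 36.3 to 64.5 TPM and no call, with CHCHD1 highest in chicken at 96.7 TPM, in quail at 119 TPM and in zebra finch at 99.7 TPM, and AURKAIP1 in duck at 67.9 TPM. The 12 genes of mitochondrial transcription and RNA processing, 6 to 8 listed, had medians of 24.8 to 43.5 TPM and no call. HSD17B10 led them in chicken at 84.8 TPM, TFAM, which packages mitochondrial DNA, in quail at 88.7 TPM and in duck at 71.3 TPM, and ELAC2 in zebra finch at 116 TPM. Of 17 mitochondrial aminoacyl-tRNA synthetase genes, 5 to 9 were listed, with medians of 11.1 to 23.5 TPM. NARS2 was called higher in duck males by 1.17 ± 0.26, with a limma adjusted p of 0.0497, and no other gene of that list was called. TARS2 led in chicken at 25.7 TPM, FARS2 in quail at 16.4 TPM and in zebra finch at 48.8 TPM, and IARS2 in duck at 36.7 TPM. No gene of these 5 lists was called between the media. Of all genes, 1.47% in chicken, 0.0120% in quail, 3.11% in duck and 0% in zebra finch were called higher in males. Those called lower were 1.22%, 0.132%, 1.27% and 0.288% in the same order. At such shares lists this short would hold few calls or none, so their counts are no result about the lists. The calls of GFM2 and NARS2 are each 1 gene of a list and describe that gene alone.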

How the data were processed

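The deposited CAGE tables give TPM (an RPM value, tags scaled to the library total) for each start site peak. Per the labels and methods, the authors trimmed reads (Trimmomatic 0.38 among others), aligned them with BWA 0.7.10-r789 and HISAT2 2.1.0 to galGal6, Coturnix_japonica_2.1, ZJU1.0 or bTaeGut2.pat.W.v2, kept peaks of at least 10 TPM in a library, and named genes with ChIPseeker 1.32.0. The deposited RNA-seq tables hold counts (HTSeq 2.0.1) and FPKM that the authors computed with edgeR. The number of unmapped per-sample columns was 0. RNA-seq totals were 21977052 to 133819725 counts. TPM steps gave whole tags for 100% of values (tolerance 0.05 tag), hence the depths. Where these passed the check of units (quail and zebra finch), edgeR's test on tags called 7 of 8331 genes between the sexes and 3 between the media in quail, and 18 of 8345 between the sexes in zebra finch.

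Promoter peaks were fitted per species with limma 3.58.1 (trend) on log2(TPM + 1), with Benjamini-Hochberg adjustment over all promoter peaks, so fold changes of low genes are understated. The libraries of an embryo are separate cultures of 1 animal, and fits without an embryo block treat them as separate samples. The labels pair both media within an embryo, and the deviations of the 9 pairs correlated at 0.40 to 0.75. Alternatives were TMM scaling (edgeR 4.0.16), pseudocounts of 0.1 and 5, a mean of at least 10 TPM, summed promoter peaks, all peaks, an adjusted p of 0.1, medium or sex as a covariate, 1 value per embryo, embryo blocks, edgeR's quasi-likelihood test on tags and leaving out each library. The script was tested on simulated data.

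The members, and the lists of subunit classes, cell type markers and 5 mitochondrial pathways, were chosen with earlier results of these data known. Named members are those on Z, those called, the 3 highest and 3 lowest by level and the 3 largest and 3 smallest by sex difference in each species, and, of the lists, called genes and leading genes. Chromosome names were taken from the study's supplementary tables, and 2 to 12 members per species lie on sequences without one. Turkey, peafowl and emu tables carry no gene symbols and were not used here. No sequence or promoter motif was analysed here.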

Additional observations from a re-analysis of the deposited data

Results flagged for a closer look

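Among the 32 named members, 5 differences between the sexes had opposite directions in a pair of species out of chicken, quail and duck. Male and female libraries did not overlap in either species of such a pair. Pairs with zebra finch, with its single male library, are not counted. The share of all genes that meet this rule is not given, so the count describes these genes alone. Each of them was named for its call or its extreme sex difference in 1 species of its pair. That side of the pair was thus picked by its value, and the count is no test. These differences between species were not tested, since the tables were made separately. MRPL42 differed by 0.24 on the log2 scale in chicken and by -2.57 in duck, 2.81 apart. Its duck peak reached 10 TPM in the female libraries only and so had to be higher there to be listed. MRPL38 differed by -1.52 in quail and 0.13 in duck, -1.65 apart, and its quail peak was likewise listed through the female libraries only. MRPL47 differed by -0.80 in chicken and 0.22 in quail, -1.02 apart. MRPL16 differed by 0.36 in quail and -0.55 in duck, 0.91 apart. MRPL24 differed by -0.53 in chicken and 0.31 in quail, -0.84 apart. None of these genes lies on Z. In 39 groups of 4 libraries of 1 sex and species, 0 named members had a library past the 95% critical value of Dixon's ratio, where chance alone flags about 1 in 20 groups of independent libraries. These groups hold 2 embryos with 2 libraries each, whose likeness makes a single far library harder to find.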

How the results depend on the processing

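The count of members called between the sexes depended on the settings. Except for edgeR's test on tags, the share of all genes that each alternative called between the sexes is not given. In chicken 5 calls became 3 with the embryo as a random replicate block and 0 with 1 value per embryo, and 0 to 6 when 1 library was left out. In duck 5 became 0 with 1 value per embryo and 2 to 5 when 1 library was left out. In quail 0 became 2 with the embryo as a random replicate block and 2 at an adjusted p of 0.1, but stayed 0 with 1 value per embryo. The fits with 1 value per embryo or without a library rest on fewer samples. In zebra finch no setting called a member, and the male library could not be left out. Between the media every setting, the embryo as a fixed replicate block included, called 0 members in each species. The Z minus other median in chicken fell to 0.94 with a pseudocount of 5. The median member level of chicken was 70.8 to 75.5 TPM when 1 library was left out, and the duck median between the media was -0.17 to -0.0080. The cause was not tested. The other 192 counts and medians computed under these alternatives stayed within 1.5 times the main count or within 1 SD. MRPL50 in duck kept an adjusted p below 0.05 in 13 of 14 alternatives, MRPL50 and MRPS30 in chicken in 10, MRPL17 in duck in 10, MRPL47 in chicken in 9, MRPS27 and MRPS33 in duck in 8, MRPS36 in chicken in 7 and MRPL24 in chicken in 6. No sign turned among the members on Z or called. In the shallowest library, with 7006061 tags, 1 tag is worth 0.143 TPM.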

Other observations

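Several members without a CAGE peak under their symbol were read in RNA-seq: 5 in chicken, 6 in quail, 6 in duck and 4 in zebra finch. MRPL2 had 64.3 FPKM in the female and 96.4 FPKM in the male chicken library, MRPL30 had 75.8 and 72.6 FPKM there, and MRPL18 had 164 and 59.3 FPKM in the female and male quail libraries. MRPL40 had 92.4 and 71.7 FPKM in duck. MRPL54, the second highest chicken member by CAGE, had 83.1 and 40.9 FPKM in quail and 36.7 and 48.9 FPKM in the zebra finch libraries labelled female and male. Their start sites are not analysed here.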
